A study of Mus musculus with 6 samples.

Results

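Tmem267, Pttg1, Gnb1, Acer3, Mbd4 and Mir1931 are 6 of the 18193 genes measured in hippocampus of the mouse line L26, and they were chosen because a probe set of each read far lower in L26 than in wild type. All 15 probe sets that the platform annotation assigns to exactly 1 of these symbols are described, out of 34945 probe sets with a single symbol. Pttg1, Gnb1 and Mbd4 have 3 probe sets each, Acer3 has 4, and Tmem267 and Mir1931 have 1 each. The L26 group holds 3 adult male mice homozygous for a daDREAM transgene, a mutant of the calcium-sensing repressor DREAM (the product of Kcnip3) that keeps repressing when calcium rises. The wild type group holds 3 adult male littermates without the transgene, and both groups share the C57B6xCBA background and received no stimulus that the labels mention. L26 is 1 line, so what belongs to the transgene and what belongs to the line cannot be told apart here, and the promoter that drives the transgene is not given in the sources used here. RNA of each hippocampus was hybridised to an Affymetrix Mouse Genome 430 2.0 array, 1 array per sample, in what the design text calls independent biological replicates. Values are log2 expression as deposited by the authors.

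The 5 protein-coding genes have unrelated roles. Pttg1 encodes securin, which holds the protease separase inactive until sister chromatids part, and Gnb1 encodes a beta subunit of heterotrimeric G proteins, which with a gamma subunit carries signals from receptors to channels and enzymes. Acer3 encodes an alkaline ceramidase, which splits ceramide into sphingosine and a fatty acid. Mbd4 encodes a DNA glycosylase that binds methylated CpG and removes thymine from mismatches left when methylated cytosine loses its amino group. Tmem267 encodes a transmembrane protein whose function is little known, and Mir1931 is a microRNA gene. A probe set reads a short stretch of a transcript, so its value follows the amount of RNA that carries exactly that stretch, and several probe sets of a gene can read different ends or exons of it. From 1 probe set alone, less transcript and transcript without that stretch cannot be told apart, and which exon each probe set reads is not known here. Whether C57B6 and CBA sequences differ under the probes was not tested either. In whole tissue, fewer cells of a type and less RNA per cell cannot be told apart either.

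The sequence of the microRNA is shown because the mature product is much shorter than the transcript an expression array of this kind reads. The seed, bases 2 to 8, is in capitals in the mature sequence, and the mature stretch is in capitals in the hairpin (RefSeq, GRCm38.p6, chr10:93162785-93162903, plus strand).
mmu-miR-1931: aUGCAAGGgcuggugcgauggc
Mir1931 hairpin: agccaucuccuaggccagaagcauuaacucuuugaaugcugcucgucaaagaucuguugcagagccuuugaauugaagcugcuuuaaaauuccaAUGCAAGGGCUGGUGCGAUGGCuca
No other of the 1738 mature mouse microRNA entries in that table had the seed UGCAAGG. The hairpin of 119 bases lies within the span of Cdk17, a cyclin-dependent kinase gene. The value given below for Mir1931 is that of a probe set annotated to its locus and does not measure the mature microRNA of 22 bases.

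In L26 hippocampus 12 of the 15 probe sets read lower in all 3 arrays than in any wild type array, 3 overlapped and none read higher in all arrays. Over all 45037 probe sets, 9.32% had all L26 values below all wild type values. The genes were chosen on this contrast, so nothing is read from that count, and their values are given as descriptions with no p. The lowest probe set of each gene held place 5 (Pttg1), 7 (Tmem267), 13 (Gnb1), 15 (Mir1931), 18 (Acer3) and 24 (Mbd4) when all probe sets were ordered from the most negative difference upwards. Beside the lowest probe sets of Mbd4 and Acer3 stood others of the same gene that differed by less than 0.4 on the log2 scale, while 2 of the 3 probe sets of Pttg1 and of Gnb1 read far lower.

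**Figure D1:**
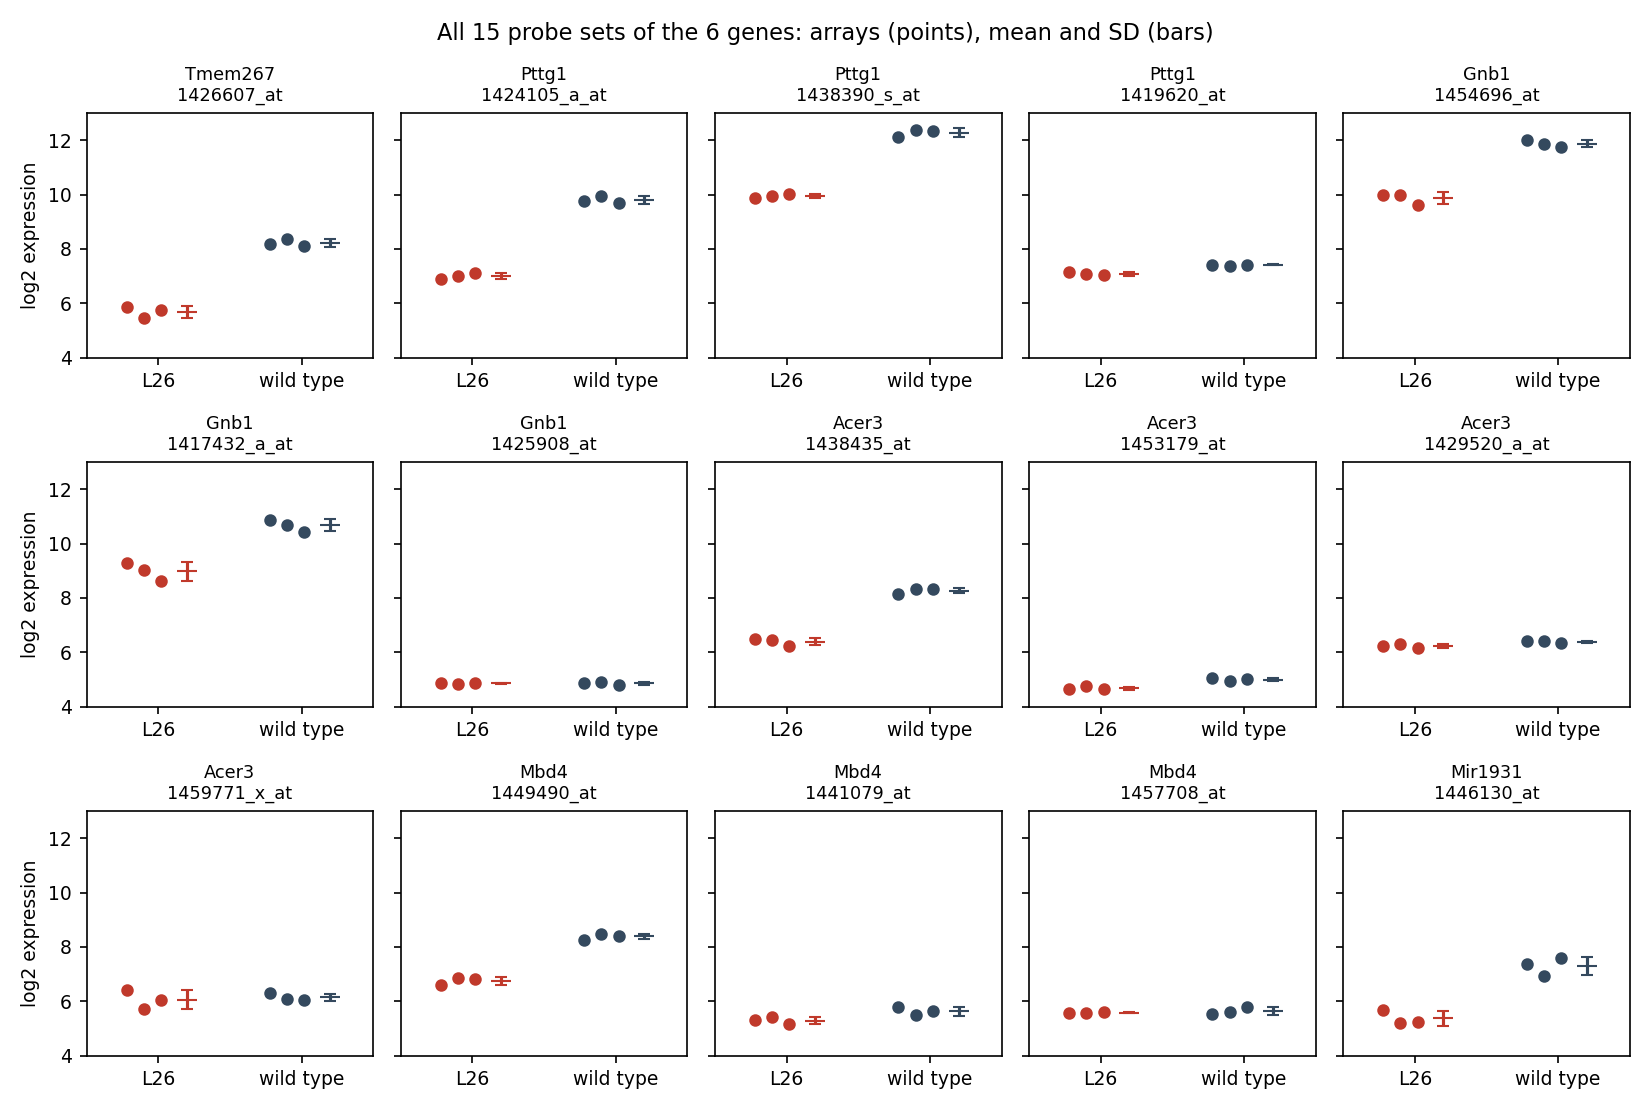
Log2 expression of all 15 probe sets of the 6 genes, with L26 (red, left) and wild type (dark, right); points are single arrays and bars show mean and SD over 3 arrays. The 2 lowest probe sets of Pttg1 and of Gnb1 and the lowest of Tmem267, Acer3, Mbd4 and Mir1931 show groups that lie more than 1 log2 unit apart, and the others lie close together.

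Tmem267 was read by a single probe set, 1426607_at. Its log2 values were 5.86, 5.45 and 5.74 in L26, against 8.19, 8.37 and 8.09 in wild type. The groups were separated by 2.23 between their closest arrays, and no L26 array came near the wild type range. The mean difference was -2.53 (SE 0.11), which leaves 17.3% of the wild type signal. In wild type the mean reading stood at percentile 64.0 of all probe sets, whereas in L26 it stood at percentile 19.3. With no second probe set, agreement within the gene could not be looked at.

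Securin, the product of Pttg1, was covered by 3 probe sets that split 2 to 1. On 1424105_a_at the log2 values were 6.89, 7.01 and 7.13 in L26, against 9.76, 9.96 and 9.70 in wild type. On 1438390_s_at, whose name marks probes shared with other transcripts, they were 9.89, 9.95 and 10.01 in L26, against 12.10, 12.39 and 12.35 in wild type. Both probe sets put the groups more than 2 log2 units apart, with differences of -2.80 (SE 0.09) and -2.33 (SE 0.08), or 14.4% and 19.9% of the wild type signal. The third, 1419620_at, had 7.16, 7.07 and 7.03 in L26, against 7.42, 7.39 and 7.42 in wild type. Here the groups were also apart, but by only 0.23 between their closest arrays, and the mean difference was -0.32 (SE 0.06). Taken within each array, 1424105_a_at minus 1419620_at was -0.27, -0.06 and 0.10 in L26, against 2.34, 2.57 and 2.28 in wild type. The level of one probe set against another has no meaning of its own. This offset shifted by -2.47 between the groups and its ranges did not overlap. The shift restates the differences of the 2 probe sets, which were known when the gene was chosen, and adds no support to them.

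Gnb1, the G protein beta subunit gene, showed the same 2 to 1 split. On 1454696_at the log2 values were 10, 9.99 and 9.61 in L26, against 12, 11.86 and 11.74 in wild type. On 1417432_a_at they were 9.29, 9.03 and 8.61 in L26, against 10.88, 10.69 and 10.44 in wild type. L26 replicate 3 was the lowest L26 array and wild type replicate 3 the lowest wild type array on both, and the groups did not overlap on either. The differences were -2.00 (SE 0.11), a 4.0-fold lower signal, and -1.69 (SE 0.16), a 3.23-fold lower one. The third probe set, 1425908_at, had 4.88, 4.83 and 4.87 in L26, against 4.88, 4.89 and 4.80 in wild type. These values overlapped, with a difference of 0.003 (SE 0.06). This reading lay at percentile 4.2 of the array in L26 and 4.3 in wild type, close to the lowest values deposited. With the lowest 40% of probe sets removed, the 2 remaining Gnb1 probe sets differed from each other by 0.31 on the log2 scale, against a gap of 2.00 with all 3.

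Acer3, the ceramidase gene, had 1 low probe set of 4. On 1438435_at the log2 values were 6.49, 6.47 and 6.23 in L26, against 8.16, 8.31 and 8.32 in wild type, a difference of -1.87 (SE 0.08), or 27.4% of the wild type signal. The groups lay 1.67 apart at their closest. On 1453179_at they were 4.65, 4.75 and 4.65 in L26, against 5.04, 4.94 and 5.01 in wild type (difference -0.31, SE 0.06), at percentiles 2.1 in L26 and 6.5 in wild type. On 1429520_a_at they were 6.25, 6.31 and 6.15 in L26, against 6.40, 6.41 and 6.34 in wild type (difference -0.15, SE 0.06). The groups of both probe sets were separate, by 0.19 and 0.03 between the closest arrays. On 1459771_x_at, which is open to related transcripts, they were 6.41, 5.71 and 6.04 in L26, against 6.30, 6.09 and 6.06 in wild type (difference -0.10, SE 0.15). These overlapped, and L26 replicate 1 had the highest value of all 6 arrays. Within arrays, 1438435_at minus 1429520_a_at was 0.24, 0.16 and 0.08 in L26, against 1.76, 1.90 and 1.98 in wild type.

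For the glycosylase gene Mbd4, 1 of 3 probe sets was low. On 1449490_at the log2 values were 6.59, 6.84 and 6.82 in L26, against 8.27, 8.48 and 8.41 in wild type, a difference of -1.64 (SE 0.08), or 32.2% of the wild type signal. All L26 arrays lay at least 1.43 below the wild type arrays. On 1441079_at they were 5.32, 5.41 and 5.15 in L26, against 5.80, 5.48 and 5.63 in wild type (difference -0.34, SE 0.09). The groups were 0.07 apart at their closest. On 1457708_at they were 5.57, 5.57 and 5.61 in L26, against 5.54, 5.60 and 5.80 in wild type, which overlapped (difference -0.06, SE 0.07). Both of these readings stood low on the array, at percentiles 11.5 and 17.3 in L26 and 18.7 and 18.9 in wild type. Within arrays, 1449490_at minus 1457708_at was 1.02, 1.27 and 1.21 in L26, against 2.73, 2.88 and 2.61 in wild type.

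The probe set annotated to Mir1931, 1446130_at, had log2 values of 5.68, 5.20 and 5.23 in L26, against 7.37, 6.92 and 7.60 in wild type. The groups lay 1.24 apart at their closest, and the SDs of 0.27 in L26 and 0.35 in wild type were among the wider ones of these genes. The difference was -1.93 (SE 0.17), or 26.3% of the wild type signal. Cdk17, whose span holds the hairpin shown above, had 12.15, 12.16 and 12.12 in L26, against 12.17, 12.07 and 12.11 in wild type (difference 0.03, SE 0.05, limma adjusted p = 0.831). The groups of Cdk17 overlapped, and its other probe set differed by 0.08.

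**Figure D2:**
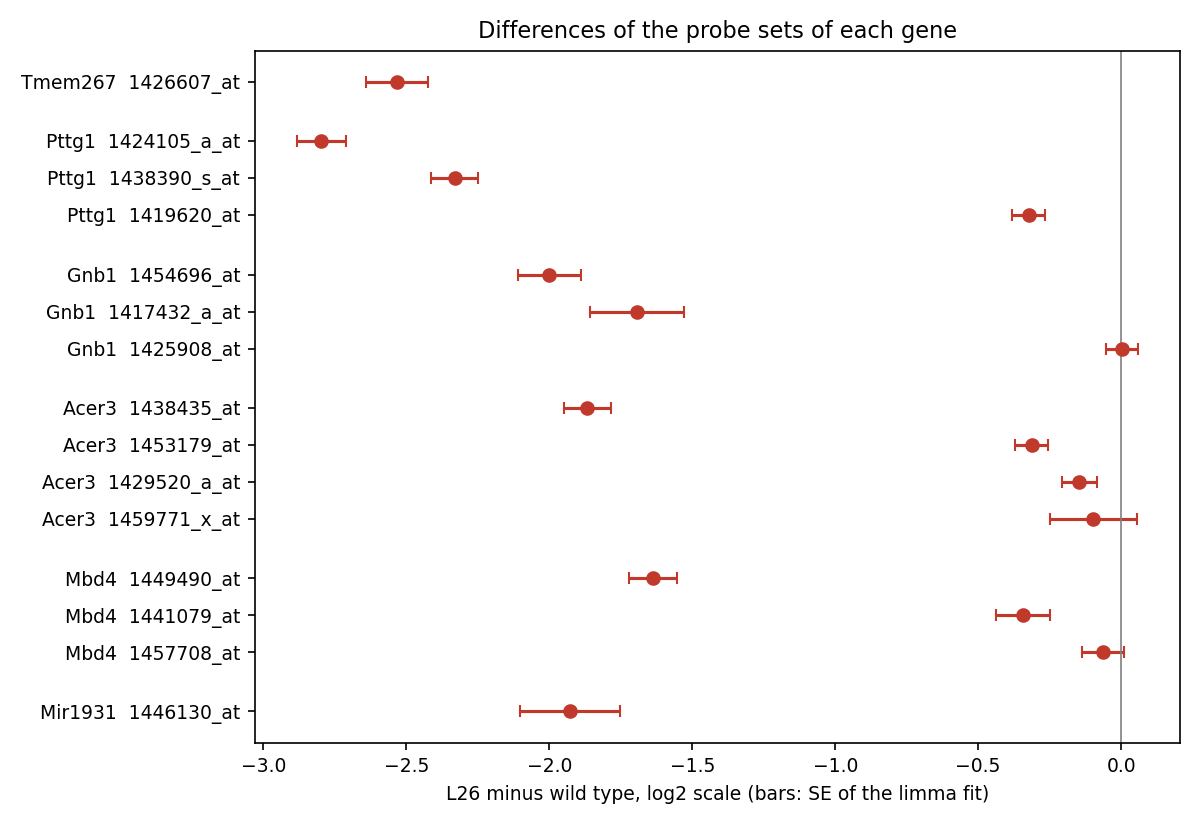
Difference L26 minus wild type on the log2 scale for each of the 15 probe sets, grouped by gene, with the SE of the limma fit as bars. Pttg1 and Gnb1 each have 2 probe sets below -1.6 and 1 above -0.4, while Acer3 and Mbd4 each have 1 below -1.6 and the rest above -0.4.

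Disagreement of this size was uncommon among the 9010 genes with several probe sets. The gap between the highest and the lowest difference of a gene was 2.47 for Pttg1, 2.00 for Gnb1, 1.77 for Acer3 and 1.57 for Mbd4, places 6, 9, 14 and 20 of 9010. The median gap over all these genes was 0.127, and 99% lay at or below 0.83. A gap is a range and can only widen as probe sets are added, and genes were not matched by their number of probe sets. In wild type the third probe set of Pttg1 stood at percentile 52.1 of the array and that of Gnb1 at 4.3. The other probe sets of Acer3 stood at 6.5, 34.0 and 29.3, and those of Mbd4 at 18.7 and 18.9. Low readings bound how far a difference can go, and their part in these gaps was not tested. With the lowest 40% of probe sets removed, the gap of Gnb1 held place 626 of 5990 and that of Pttg1, unchanged at 2.47, place 5. Acer3 and Mbd4 kept only their most lowered probe set there and so had no gap. The 6 other genes with the largest gaps were Pdxdc1 (3.67), Mtmr7 (3.18), Tia1 (3.13), Sox11 (2.68), Arhgap26 (2.54) and 4833420G17Rik (2.12). In each of these 6, too, the low end was a probe set below -1.8 on the log2 scale. After these values were seen, 41 genes were counted whose lowest probe set differed by -1 or less. In 5 of the 41, among them Pttg1 and Gnb1, a second probe set also reached -1. In 22 of the 41, among them Acer3 and Mbd4, every other probe set stayed above -0.5. No test is attached to these places, since the genes were chosen with their disagreement known.

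Over the 6 arrays the lowest probe set of each gene had close counterparts elsewhere, as measured by Pearson's r among 34930 other probe sets with 1 symbol. The nearest pair was Arhgap20 (r = 0.9993) and Camk2n1 (0.9987) for Pttg1, Bend6 (0.9987) and Zfp775 (0.9986) for Tmem267, and Serpini1 (0.9997) and Necab1 (0.9976) for Gnb1. It was Lrrc49 and Bod1 (both 0.9981) for Acer3, Kcnj9 (0.9989) and Cd44 (0.9988) for Mbd4, and Fgf12 (0.9983) and Il1rapl1 (0.9982) for Mir1931. The points share the group difference, and between 325 and 495 probe sets exceeded 0.95 for each gene, so these values describe 6 arrays and carry no p. The counterpart probe sets of Mbd4 also had large differences, -1.34 for the potassium channel gene Kcnj9 and -1.52 for the hyaluronan receptor gene Cd44. These were the lowest probe sets of both genes, and the others ranged from -0.63 to 0.07 for Kcnj9 and from -0.80 to 0.13 for Cd44. The other 10 counterparts had differences between -0.54 and -0.15.

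The genes next to the 6 along the chromosomes were a measure that the choice did not use. Of 60 neighbours, the 5 nearest measured genes on each side, 9 were lower in L26 (15%) and 3 higher (5.0%), and 48 did not pass limma with Benjamini-Hochberg adjustment over all genes at 0.05. Over all 18193 genes 2.57% were lower and 2.63% higher (690 genes lower and 382 higher when arrays were centred on their medians, against 467 and 478 as deposited). With centred arrays, 10 neighbours were lower and 3 higher. Without L26 replicate 2, 221 of all genes were lower and 180 higher, and 6 neighbours were lower and 3 higher. Without L26 replicate 3, 238 of all genes were lower and 183 higher, and of the neighbours again 6 and 3. Without wild type replicate 1 or 3, too, 6 neighbours were lower and 3 higher. The median difference of the 60 was -0.02, against 0.01 over all genes.

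Near Tmem267 on chromosome 13, 4833420G17Rik had log2 values of 9.09, 9.02 and 9.14 in L26, against 10.19, 10.15 and 10.22 in wild type (difference -1.10, SE 0.05, limma adjusted p = 3.01e-05). It lies at the second place before Tmem267, with 3110070M22Rik between them (difference -0.11, adjusted p = 0.347), and Ccl28, a chemokine gene, lies directly after (difference 0.09, adjusted p = 0.543). The 5 probe sets of 4833420G17Rik differed by -1.87, -1.21, -1.10, 0.01 and 0.25. At the third place before, Paip1, a partner of poly(A)-binding protein, had 10.33, 10.31 and 10.24 in L26, against 9.91, 9.86 and 9.98 in wild type (difference 0.38, SE 0.06, limma adjusted p = 0.00703), and its other probe sets ranged from 0.10 to 1.02. Both passed in opposite directions, and each call held in all 14 alternative settings. Zfp131, a zinc finger gene, was lower by a smaller amount (difference -0.28, SE 0.06, limma adjusted p = 0.0401). Its call was lost with a replicate block and when L26 replicate 2 or 3 or wild type replicate 1 or 3 was left out (adjusted p up to 0.143 over the alternatives).

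Near Mbd4 on chromosome 6, 4 of 10 neighbours passed. Ift122, a ciliary transport gene directly after Mbd4, had 9.71, 9.63 and 9.68 in L26, against 9.21, 9.12 and 9.21 in wild type (difference 0.49, SE 0.05, limma adjusted p = 0.00164), and its other probe set had 0.64. The semaphorin receptor gene Plxnd1 had 7.83, 8.22 and 8.07 in L26, against 8.69, 8.72 and 8.56 in wild type (difference -0.62, SE 0.10, limma adjusted p = 0.00853). The groups of both genes were separate. Tmcc1 differed by -0.54 (SE 0.06, limma adjusted p = 0.00124) on the probe set with the highest mean and by -0.11, 0.14 and 0.43 on its others, and the call was lost when its probe sets were averaged (adjusted p = 0.859). Washc2, of the endosomal WASH complex, differed by -0.24 (SE 0.05, limma adjusted p = 0.0262) with other probe sets from -0.61 to -0.26. Its call was lost with a replicate block and when any 1 array was left out (adjusted p up to 0.0991). Efcab12, directly before Mbd4, differed by -0.21 (adjusted p = 0.144).

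The remaining genes had fewer such neighbours. Near Acer3 on chromosome 7, Myo7a, an unconventional myosin gene, had 6.63, 6.40 and 6.76 in L26, against 7.42, 7.19 and 7.48 in wild type (difference -0.77, SE 0.10, limma adjusted p = 0.00467), and Aqp11, an aquaporin gene, was higher (difference 0.47, SE 0.06, limma adjusted p = 0.00308). Myo7a lies at place 4 and Aqp11 at place 5 before Acer3, and the genes directly beside it, B3gnt6 and Emsy, differed by -0.06 and -0.05 and did not pass. Near Mir1931 on chromosome 10, the noncoding RNA gene Rmst had 6.87, 6.50 and 6.47 in L26, against 7.54, 7.68 and 7.42 in wild type (difference -0.93, SE 0.11, limma adjusted p = 0.00257), with 0.02 on its other probe set, and Elk3, directly after, differed by 0.27 (adjusted p = 0.131). Near Gnb1 on chromosome 4, the GABA receptor gene Gabrd was lower (difference -0.52, SE 0.07, limma adjusted p = 0.00337, other probe set 0.09), while Tmem52 and Nadk beside Gnb1 differed by 0.14 and 0.10 and did not pass. Near Pttg1 on chromosome 11, Gabrb2 was lower by a small amount (difference -0.27, SE 0.06, limma adjusted p = 0.0472). Its call was lost with a replicate block, when any 1 array was left out, and when its probe sets were averaged (adjusted p up to 0.136). Atp10b and Slu7 beside Pttg1 differed by 0.11 and -0.01 and did not pass. The other probe set of Atp10b differed by -0.11, and those of Slu7 ranged from -0.38 to 0.03.

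**Figure D3:**
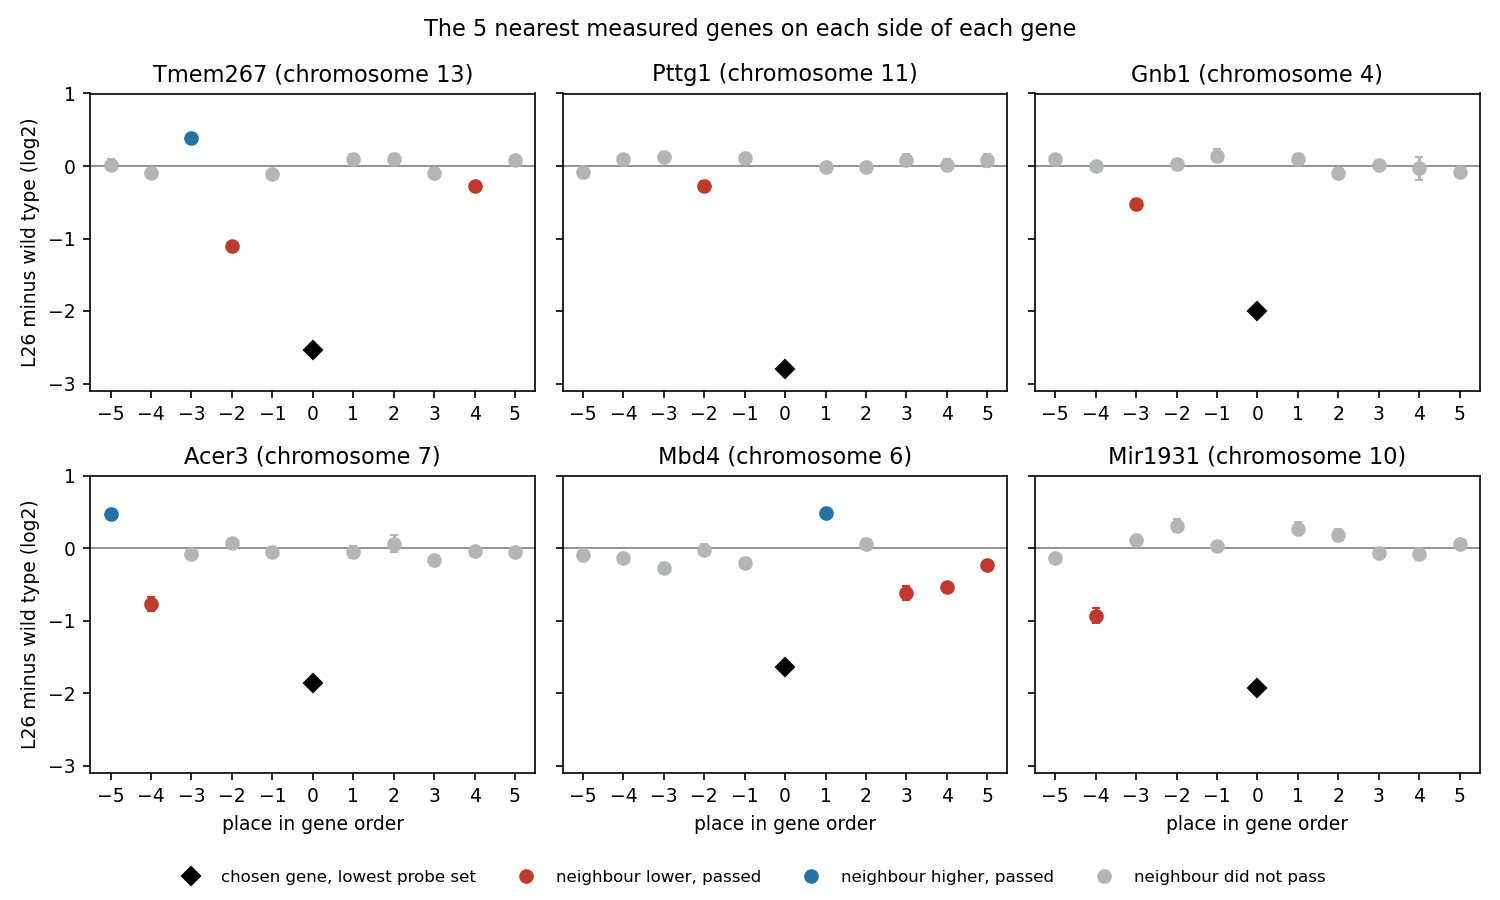
Difference L26 minus wild type (log2) of the 5 nearest measured genes on each side of each gene, by place in gene order, with the SE as bars; diamonds mark the lowest probe set of the chosen gene. Of 60 neighbours 9 passed as lower (red) and 3 as higher (blue), with 4 of the 12 beside Mbd4 and 3 beside Tmem267.

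Of 142 other measured genes in the pathways of the 6 genes, 6 passed in either direction (4.2%), against 5.2% of all genes. The count was 2 without L26 replicate 2 or 3 and 3 without any 1 wild type array. At an unadjusted p under 0.05, 9.0% of all genes were lower and 11.3% higher. Among 33 measured genes of anaphase and cohesin, 0 were lower and 1 was higher by limma, and 2 lower (6.1%) and 4 higher (12.1%) at an unadjusted p under 0.05. The gene that passed was the cohesin loader gene Mau2 (difference 0.34, SE 0.07, adjusted p = 0.0351, other probe sets from 0.01 to 0.14), whose call was lost when L26 replicate 1, 2 or 3 or wild type replicate 1 or 3 was left out or probe sets were averaged (adjusted p up to 0.196). Espl1, which encodes separase, the protease that securin holds, had 5.90, 5.87 and 5.93 in L26, against 5.75, 5.99 and 5.80 in wild type and did not pass (difference 0.05, adjusted p = 0.731). Espl1 and the relatives of Gnb1 and Acer3 named next were chosen after their values were seen. Markers of dividing cells, in which securin acts, had a mean level of 7.08 to 7.13 over the L26 arrays and of 7.0 to 7.12 over the wild type arrays. By limma 0 of these 9 markers passed, and 0 were lower and 1 higher at an unadjusted p under 0.05.

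Among 28 genes of heterotrimeric G proteins other than Gnb1, 1 was lower and 1 higher by limma, 3.6% each, against 2.57% and 2.63% of all genes. At an unadjusted p under 0.05, 5 were lower (17.9%, against 9.0% of all genes) and 3 higher (10.7%, against 11.3%). Gng4, a gamma subunit gene, had 10.60, 10.55 and 10.42 in L26, against 11.05, 10.90 and 11.01 in wild type (difference -0.46, SE 0.07, limma adjusted p = 0.00605). The groups were separate, but the name of the probe set, ending in _s_at, marks probes shared between transcripts, and with those probe sets removed Gng4 did not pass (adjusted p = 0.209). That setting reads Gng4 on 1417944_at, which differed by 0.15 (SE 0.06), while the remaining probe set, 1417943_at, differed by -0.46 (SE 0.06). The gamma subunit gene Gng11 was higher (difference 0.38, SE 0.09, limma adjusted p = 0.0395), a call lost without any 1 array other than wild type replicate 3 (adjusted p up to 0.142). The other beta subunit genes Gnb2, Gnb3, Gnb4 and Gnb5 differed by 0.01, -0.03, 0.06 and -0.14, and none passed. Further probe sets of Gnb4 differed by -0.36 and 0.09, and that of Gnb5 by 0.15.

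Among 38 genes of ceramide and sphingolipid metabolism, 0 were lower by limma and 3 higher (7.9%, against 2.63% of all genes). At an unadjusted p under 0.05, 5 were lower (13.2%, against 9.0% of all genes) and 8 higher (21.1%, against 11.3%). The sphingosine-1-phosphate receptor gene S1pr3 had 8.74, 8.89 and 8.79 in L26, against 8.34, 8.29 and 8.43 in wild type (difference 0.45, SE 0.06, limma adjusted p = 0.00488) and passed in all 14 alternative settings. Ceramide synthase gene Cers2 (difference 0.37, SE 0.08, limma adjusted p = 0.0289) and Ugt8a, which makes the myelin lipid galactosylceramide (difference 0.44, SE 0.10, limma adjusted p = 0.0459), were also higher. The call of Cers2 was lost without any 1 array other than L26 replicate 1 (adjusted p up to 0.113), and so was that of Ugt8a. The call of Ugt8a was also lost with a replicate block and on averaging its probe sets (up to 0.114). On the same arrays 11 of 13 oligodendrocyte markers, Ugt8a among them, were higher, with mean levels of 11.46 to 11.70 in L26 and 11.18 to 11.26 in wild type; their part in these differences was not tested. The ceramidase genes Acer1 and Acer2 differed by 0.15 (adjusted p = 0.208) and -0.25 (adjusted p = 0.196).

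Among 27 genes of base excision repair and methyl-CpG binding, 0 passed by limma. At an unadjusted p under 0.05, 1 was lower (3.7%, against 9.0% of all genes) and 4 higher (14.8%, against 11.3%). The smallest p belonged to the DNA ligase genes Lig3 (difference 0.37, limma adjusted p = 0.0666) and Lig1 (difference -0.19, limma adjusted p = 0.0959). Of 16 genes of the microRNA machinery 0 passed by limma, and 1 was lower and 1 higher (6.2% each) at an unadjusted p under 0.05. These were Tnrc6a (difference -0.15, limma adjusted p = 0.178) and Ago2 (difference 0.13, limma adjusted p = 0.243), whose products act in silencing of target RNAs. List medians were 0.00, 0.02, 0.01, 0.04 and 0.01 in the order of these lists, against 0.01 over all genes.

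**Figure D4:**
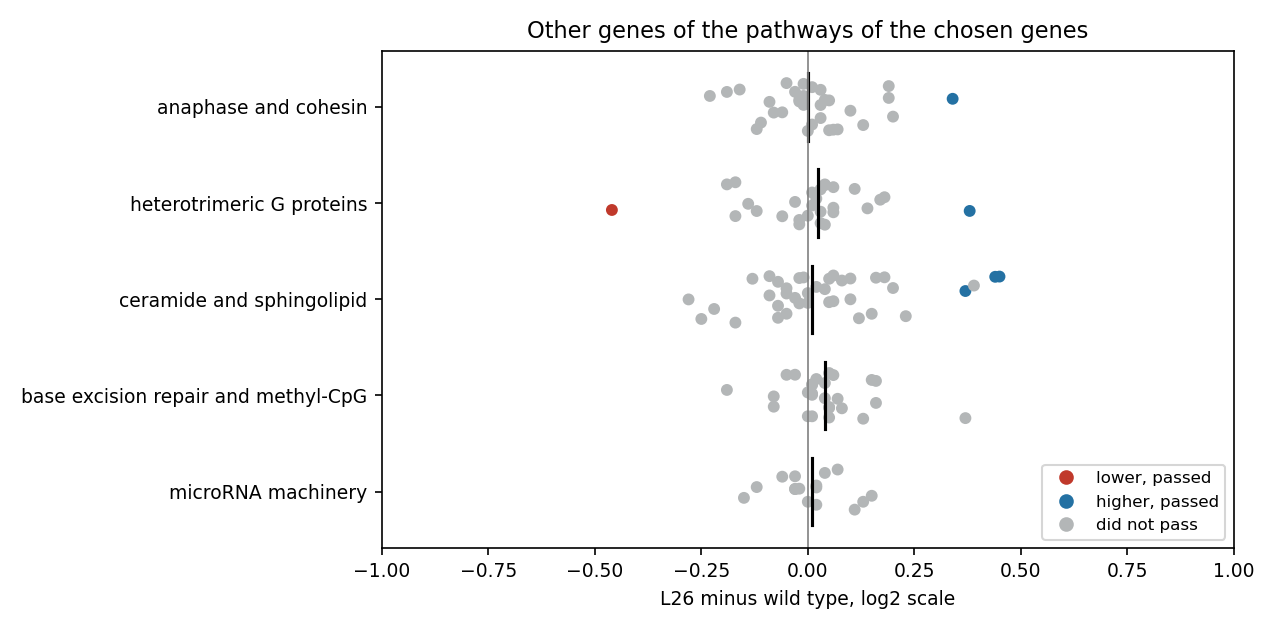
Difference L26 minus wild type (log2) of 142 other genes of the 5 pathways; each point is a gene, the black bar is the list median, and red and blue mark genes that passed as lower or higher. One gene, Gng4, passed as lower and 5 as higher, and the medians lie between 0.00 and 0.04.

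The starts of Gnb1 and Pttg1 are shown because 2 probe sets of each gene read lower together and DREAM binds a downstream regulatory element whose core reads GTCA. In the 250 bases before the start (RefSeq, GRCm38.p6) the core, GTCA or its reverse complement TGAC, is in capitals, and the 2 strings cannot overlap. The Gnb1 window is chr4:155491111-155491360 on the plus strand and the Pttg1 window chr11:43425982-43426231 on the minus strand.
Gnb1: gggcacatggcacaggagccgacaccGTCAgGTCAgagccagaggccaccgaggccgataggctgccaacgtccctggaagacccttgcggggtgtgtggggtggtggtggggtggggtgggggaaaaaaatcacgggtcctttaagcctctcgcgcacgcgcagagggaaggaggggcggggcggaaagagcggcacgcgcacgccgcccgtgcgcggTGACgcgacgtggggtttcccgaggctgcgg
Pttg1: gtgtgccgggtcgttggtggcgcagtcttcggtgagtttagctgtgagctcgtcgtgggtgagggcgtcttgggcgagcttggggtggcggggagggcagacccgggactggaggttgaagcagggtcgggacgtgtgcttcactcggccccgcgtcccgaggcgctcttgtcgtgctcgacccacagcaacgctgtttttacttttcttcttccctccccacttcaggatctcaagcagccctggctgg
The core occurred 3 times in the Gnb1 window and 0 times in the Pttg1 window. It occurred 2 times in the Mbd4 window, 2 times in each of both Acer3 windows, and 2 times and 1 time in the Tmem267 windows. Of all 32851 such windows 80.2% held at least 1, with a median of 2, so a match is a description of these letters and not a binding site. Sequence after the start was not looked at, so these counts do not cover an element that lies there.

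Array medians lay between 7.27 and 7.32, and correlations across probe sets were 0.9971 to 0.9979 within groups and 0.9944 to 0.9958 between groups. Markers of hippocampal neurons were well above the array medians in both groups, with mean levels of 11.68 to 11.70 in L26 and 11.60 to 11.68 in wild type, and 1 of 12 passed, Grik4, as higher. Blood vessel markers had mean levels of 9.17 to 9.28 in L26 and 8.80 to 8.82 in wild type, with 7 of 11 higher. Choroid plexus markers varied within both groups, from 8.88 to 9.96 in L26 and from 8.85 to 9.68 in wild type, with 1 of 10 passing, Kcne2, as lower. Of 9 astrocyte markers 1 was lower, with mean levels of 11.71 to 11.75 in L26 and 11.66 to 11.74 in wild type. Gfap, among those that did not pass, differed by -0.09 on its probe set of highest mean and by -1.60 and 0.29 on its others. Of 9 microglia markers 3 were higher and 1 lower, with mean levels of 9.60 to 9.65 in L26 and 9.50 to 9.63 in wild type. The part of these cell types in the values of the 6 genes was not tested.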

How the data were processed

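The authors deposited log2 expression values for 6 arrays, made with RMA and the affy package per the submitters' processing notes. No version of either is named there. RMA as generally run corrects background, quantile-normalizes probes across arrays and summarises a probe set by median polish, so low readings are compressed and no detection call is given. The values ran from 4.20 to 15.02 over 45037 probe sets, after 64 array controls were left out. Arrays have no sequencing depth; their number, 3 per group, limits the precision. The platform annotation gave 34945 probe sets 1 symbol, 932 several and 9160 none, and 0 probe sets with several symbols held one of the 6 genes.

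The contrast L26 minus wild type was fitted by lmFit and eBayes of limma 3.58.1, run under R 4.3.3 (two-sided, Benjamini-Hochberg, 0.05, no filter). For gene tables each gene was represented by its probe set of highest mean level, and neighbours were taken from the gene order of RefSeq GRCm38.p6, which placed 18030 of 18193 genes. Levels of list markers are means of log2 values. SE comes from the limma fit. The code was tested on simulated data.

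The 6 genes, the gene lists and the tests were chosen with earlier results of these data known. The text names all probe sets of the 6 genes, up to 3 passing genes per pathway list and direction (otherwise the 2 with the smallest p), the nearest neighbour on each side and every passing one, the 2 most similar probe sets and the 6 other genes with the largest gaps. Alternatives were a replicate block, each array left out, repeated quantile normalization, centring on array medians, removal of the lowest 40% of probe sets, an intensity trend with robust prior, array weights, a threshold of 0.1, leaving out probe sets named _x_at or _s_at, and gene means over probe sets.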

Additional observations from a re-analysis of the deposited data

How the results depend on the processing

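The differences of the 15 probe sets kept within their replicate spread in all settings that recomputed them (each array left out, repeated quantile normalization, centring on array medians, removal of the lowest 40% or of probe sets named _x_at or _s_at). Little can be read from this. Leaving out 1 of 3 arrays cannot move a group mean beyond that spread, and removing probe sets leaves the differences of the others unchanged. Centring on array medians shifts all of them by the same amount. Gaps between probe sets, built from the same differences, also stayed within the replicate spread, except that of Gnb1. It was 0.307 with the lowest 40% removed, a setting that takes out its probe set 1425908_at. The same setting leaves Acer3 and Mbd4 with 1 probe set each, so they have no gap there. Leaving out 1 array gave 810 to 1430 probe sets past the threshold, against 1764 of 45037 with all arrays, 401 to 696 genes against 945, and 2 to 5 of the 142 pathway genes against 6. The lowest count came without L26 replicate 3 for probe sets and without L26 replicate 2 for genes. Counts fell below the full ones by a large factor without L26 replicate 2 or 3 or wild type replicate 2 for probe sets, and without any array but L26 replicate 1 for genes and for pathway genes. A threshold of 0.1 gave 3167 probe sets, 1734 genes and 13 pathway genes. Neighbours past the threshold numbered 9 to 14 over all settings, against 12. Centring arrays on their medians gave 1149 probe sets lower and 717 higher, against 872 and 892. No pairing of the samples by replicate number was evident. Deviations of L26 and wild type arrays with the same number correlated at -0.038, -0.07 and 0.154, and those with different numbers at -0.153 to 0.188. A replicate block gave 1330 probe sets, 635 genes, 5 pathway genes and 10 neighbours, and under it Zfp131, Washc2, Gabrb2 and Ugt8a did not pass. The cause of these changes was not tested. Precision is limited by 3 arrays per group, and readings in the lowest part of the array bound how far a difference can go.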
